A study of Oryza sativa with 24 samples.

Results

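Iron acquisition genes of rice were followed in roots and shoots of 2 genotypes grown with and without sufficient phosphate (Pi). The group was defined by name, as the genes NAS1, NAS2, NAS3, NAAT1, DMAS1, IRO2, IRT1, IRT2, YSL15 and YSL2. Of these 10 names, 9 matched 1 gene of the rice gene table and 8 had a probe set on the array that the platform annotation pairs with that gene alone. These 8 genes stand among 17905 genes with such a probe set. No gene was matched for DMAS1, and no single-gene probe set for YSL2, so both were not analysed here. The name IRO2 led to the gene LOC4332972, a bHLH transcription factor gene that the table lists as bHLH063, as IRO3 and also as OsIRO2. It is called bHLH063 below, because in the rice literature IRO2 and IRO3 are different bHLH factors. There IRO2 is another bHLH gene than bHLH063, so the probe set more likely reads IRO3. IRO2 itself may then not have been measured, and the table alone does not settle this.

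Rice takes up iron in a pair of ways. Nicotianamine synthases (NAS) join S-adenosylmethionine into nicotianamine, nicotianamine aminotransferase (NAAT) starts its conversion to the phytosiderophore deoxymugineic acid, roots release this chelator, and YSL15 brings the iron(III) complex back into the root. In parallel, IRT1 and IRT2 carry free iron(II) across the plasma membrane. These genes are known to be switched on in iron-deficient rice roots, IRO2 as a positive and IRO3 as a negative regulator in that response.

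Transcripts were measured on 24 Affymetrix rice arrays, in 8 groups of 3 biological replicates each: roots and shoots of Dular and of PB1 at −Pi and at +Pi. Dular is the genotype described as tolerant of low Pi and PB1 (Pusa Basmati-1) the one described as sensitive. Seedlings were 15 days old and had grown in Yoshida nutrient solution, either low in Pi (−Pi, 1 µM) or sufficient (+Pi, 320 µM), with iron given as FeNaEDTA in both, so that no group was starved of iron by design. Each RNA sample came from 3 pooled seedlings. Deposited signals are on the log2 scale, with every probe set centred on its own median across arrays. A value of 0 is therefore the middle array of that gene and no absolute level, and levels of different genes cannot be set against each other. Differences are given as log2(−Pi/+Pi), log2(Dular/PB1) or log2(root/shoot) with the standard error (SE) from limma, n = 3 arrays in every group. Calls required 2-fold or more and an adjusted p (Benjamini-Hochberg, 57258 probe sets) not above 0.05, and a difference between 2 responses at that adjusted p alone.

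The labels were checked against marker genes. Pi starvation genes followed the Pi labels: SPX3, an inhibitor of Pi signalling, stood at 5.40, 5.36 and 5.37 in Dular roots at −Pi against -2.27, -3.01 and -2.27 at +Pi, and all 4 such genes measured were called higher at −Pi in the roots of both genotypes. Root markers (LSI1, LSI2, CASP1 and HKT1;5) were called higher in roots than in shoots in all 4 of 4 cases, in both genotypes and at both Pi levels, and shoot markers (RCA, RBCS, CAB2R and PORB) were called lower in roots in 2 to 3 of 4. Array medians lay between -0.0338 and 0.0298, and the mean correlation between replicate arrays across centred probe sets ranged from 0.695 in PB1 shoots at −Pi to 0.953. Nothing in the labels ties a replicate number to a shared batch, and replicates were taken as independent.

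NAS1 and NAS2, the nicotianamine synthase genes that lie next to each other in the genome, lost nearly all of their root signal in Dular under low Pi. NAS1 read -0.0018, 1.53 and 0.01 in Dular roots at −Pi, against 9.76, 9.36 and 9.67 at +Pi. At −Pi, replicates 1 and 3 lay close to the shoots, where NAS1 was between -0.11 and 0.0018 on all 12 arrays, and replicate 2 stood somewhat above them. The change was -9.08 ± 0.62 (SE, limma adjusted p = 7.05e-09), or 542-fold lower. The size of such a fold depends on how the summarization treats signals near its floor, and these centred values allow no detection call. In whole roots, fewer cells of a type and less RNA per cell cannot be told apart.

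In NAS2 the same arrays stood apart. Its values were 0.02, 1.05 and -0.11 in Dular roots at −Pi, against 7.89, 7.89 and 8.05 at +Pi. The change was -7.62 ± 0.92 (SE, limma adjusted p = 7.15e-06), 197-fold lower. Again replicate 2 was the highest of the −Pi arrays, and it lay far under the +Pi arrays. The 12 shoot arrays lay between -1.25 and 0.01. NAS1 and NAS2 are close paralogs, and whether each probe set reads only its own transcript was not tested.

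PB1 roots kept both transcripts at low Pi. NAS1 read 12.10, 10.47 and 12.63 in PB1 roots at −Pi and 11.82, 10.57 and 8.54 at +Pi, and NAS2 read 9.17, 5.78 and 10.08 at −Pi and 9.94, 7.35 and 5.59 at +Pi. The groups overlapped for both genes. Neither difference passed the test, with 1.42 ± 0.62 for NAS1 (SE, limma adjusted p = 0.137) and 0.71 ± 0.92 for NAS2 (SE, adjusted p = 0.592). The NAS1 value was called, however, when 1 array was left out: it was 2.18 without +Pi replicate 1 (limma adjusted p = 0.0166) and 2.06 without −Pi replicate 2 (adjusted p = 0.0407), and it was 0.54 without +Pi replicate 3. By the rule of a Pi main effect with 2-fold it was called too, but this does not bear on PB1 roots alone. The main effect is pooled over genotypes and tissues, and at -1.90 (limma adjusted p = 0.000159) it had the opposite sign to the PB1 value.

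NAS3, the third synthase gene, ran the other way and over a far smaller range. It read 0.22, 0.13 and 0.46 in Dular roots at −Pi against -0.61, -0.69 and -1.10 at +Pi, and all −Pi arrays lay above all +Pi arrays. The rise of 1.07 ± 0.26 (SE, limma adjusted p = 0.00608) was just over 2-fold, and it fell under 2-fold after quantile normalization (0.90) and without Dular root +Pi replicate 3 (0.92) or −Pi replicate 3 (0.97). In PB1 roots the values overlapped, 0.72, 0.86 and 0.94 at −Pi and 0.42, 0.78 and 1.33 at +Pi, and the difference was -0.00090 ± 0.26 (SE, limma adjusted p = 0.998).

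NAS3 also rose in Dular shoots. Its shoot values were 0.83, 0.53 and 0.92 at −Pi against -1.16, -0.26 and -0.24 at +Pi, a change of 1.31 ± 0.26 (SE, limma adjusted p = 0.00383). PB1 shoots showed -0.52, -0.66 and -0.44 at −Pi and -0.67, -0.13 and -0.98 at +Pi, which overlap (0.05 ± 0.26, adjusted p = 0.939). The test of the difference between genotypes in this response was not passed, neither in roots (1.07 ± 0.37, limma adjusted p = 0.0678) nor in shoots (1.26 ± 0.37, adjusted p = 0.0737). That NAS3 responded in Dular alone was therefore not shown. The shoot difference between the genotypes passed without PB1 shoot +Pi replicate 3 (1.45, limma adjusted p = 0.0442), and the root difference without PB1 root +Pi replicate 1 (1.28, adjusted p = 0.0329).

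NAAT1, the aminotransferase gene of the next step, was not called in roots. Its values were -0.50, 0.07 and -0.14 in Dular roots at −Pi and 0.07, -0.03 and 0.03 at +Pi, so that the signal hardly varied where NAS1 and NAS2 were lost (-0.21 ± 0.83, limma adjusted p = 0.933). In PB1 roots it scattered widely, with 1.76, -0.68 and 2.40 at −Pi and 1.88, 0.11 and -1.51 at +Pi (1.00 ± 0.83, adjusted p = 0.380). Its only call between the Pi levels was in Dular shoots. In Dular shoots it read 1.94, -0.79 and -0.18 at −Pi against -2.85, -1.52 and -3.06 at +Pi, every −Pi array above every +Pi array. The rise of 2.80 ± 0.83 (SE, limma adjusted p = 0.0491) passed the threshold narrowly and lost its call in 10 of 16 alternatives. Among these were a fit to shoot arrays only (limma adjusted p = 0.0618), the replicate number as a block (0.0636), and leaving out Dular shoot −Pi replicate 1 (1.99, adjusted p = 0.233). In PB1 shoots NAAT1 lay between -0.21 and 0.73 on all 6 arrays, and the difference between the responses of Dular and PB1 shoots did not pass the test (2.84 ± 1.18, limma adjusted p = 0.261).

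bHLH063, the regulator gene, fell in Dular roots. It read -0.05, 0.05 and -0.41 in Dular roots at −Pi against 3.09, 3.07 and 2.71 at +Pi, a change of -3.09 ± 0.27 (SE, limma adjusted p = 1.45e-07). The lowest +Pi array (2.71) lay far above the highest −Pi array (0.05). In PB1 roots it read 1.03, 0.78 and 1.30 at −Pi and 0.81, 0.56 and 0.32 at +Pi. These groups overlap in 1 array of each, and the difference of 0.47 ± 0.27 was not called (SE, limma adjusted p = 0.212).

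In shoots bHLH063 was higher at low Pi. PB1 shoots read 0.19, 0.81 and -0.27 at −Pi against -1.35, -1.39 and -0.87 at +Pi, and the rise was 1.45 ± 0.27 (SE, limma adjusted p = 0.00394). Fitted to shoot arrays only, the adjusted p was 0.0659. Dular shoots read -1.48, -1.22 and -1.24 at −Pi against -2.47, -1.61 and -2.58 at +Pi, a difference of 0.91 ± 0.27 that passed the p threshold (limma adjusted p = 0.0491) and stayed under 2-fold. bHLH063 was thus the 1 member that fell in roots of Dular and had values above those at +Pi in shoots of both genotypes. The contrast of its root and shoot responses in Dular was -4.00 ± 0.38 (SE, limma adjusted p = 1.79e-06).

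YSL15, the transporter of the iron(III) phytosiderophore complex, behaved like NAS1 and NAS2. Its values were 0.28, 0.44 and 0.82 in Dular roots at −Pi against 7.41, 7.78 and 7.76 at +Pi. The change was -7.13 ± 0.75 (SE, limma adjusted p = 1.48e-06), 140-fold lower, and it ranged from -7.29 to -7.01 when each Dular root array was left out in turn. In PB1 roots YSL15 read 5.78, 3.00 and 6.51 at −Pi and 6.72, 5.22 and 3.36 at +Pi. The groups overlapped fully and the difference was -0.0047 ± 0.75 (SE, adjusted p = 0.997). All 12 shoot arrays lay between -1.74 and -0.28, under every root array.

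IRT1, the iron(II) transporter, kept its root signal in Dular. It read 6.47, 6.73 and 6.38 in Dular roots at −Pi against 7.28, 7.17 and 7.18 at +Pi. Every −Pi array was lower, but the difference of -0.68 ± 0.52 did not pass the test (SE, limma adjusted p = 0.491). Over the alternatives the difference ran from -0.78 to -0.38, always under 2-fold, and the limma adjusted p from 0.0124 to 0.892. A fall smaller than 2-fold is thus not excluded. Shoot arrays lay between -1.66 and 0.11 and neither genotype was called there. In PB1 roots IRT1 was higher at low Pi, with 3.62, 1.97 and 4.20 at −Pi against 2.41, 0.58 and -0.11 at +Pi. The rise of 2.30 ± 0.52 was called (SE, limma adjusted p = 0.00494) although the lowest −Pi array lay under the highest +Pi array. In a fit to root arrays only the adjusted p was 0.0516, with only the compared groups it was 0.214, and by the rule of a Pi main effect with 2-fold it was 0.0858. The SE takes 1 spread per gene for all 8 groups, and IRT1 spread far more in PB1 roots (SD 1.16 at −Pi and 1.30 at +Pi) than in Dular roots (SD 0.18 at −Pi and 0.06 at +Pi).

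IRT2, a second iron(II) transporter gene, was flat. Its 8 group means spanned 0.27 on the log2 scale, and no comparison of it was called. The highest values were 0.66 in Dular root −Pi replicate 2 and 0.33 in PB1 root −Pi replicate 1, and all shoot arrays lay between -0.05 and 0.01. Without uncentred signals it cannot be said whether the transcript was above background on any array.

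**Figure D1:**
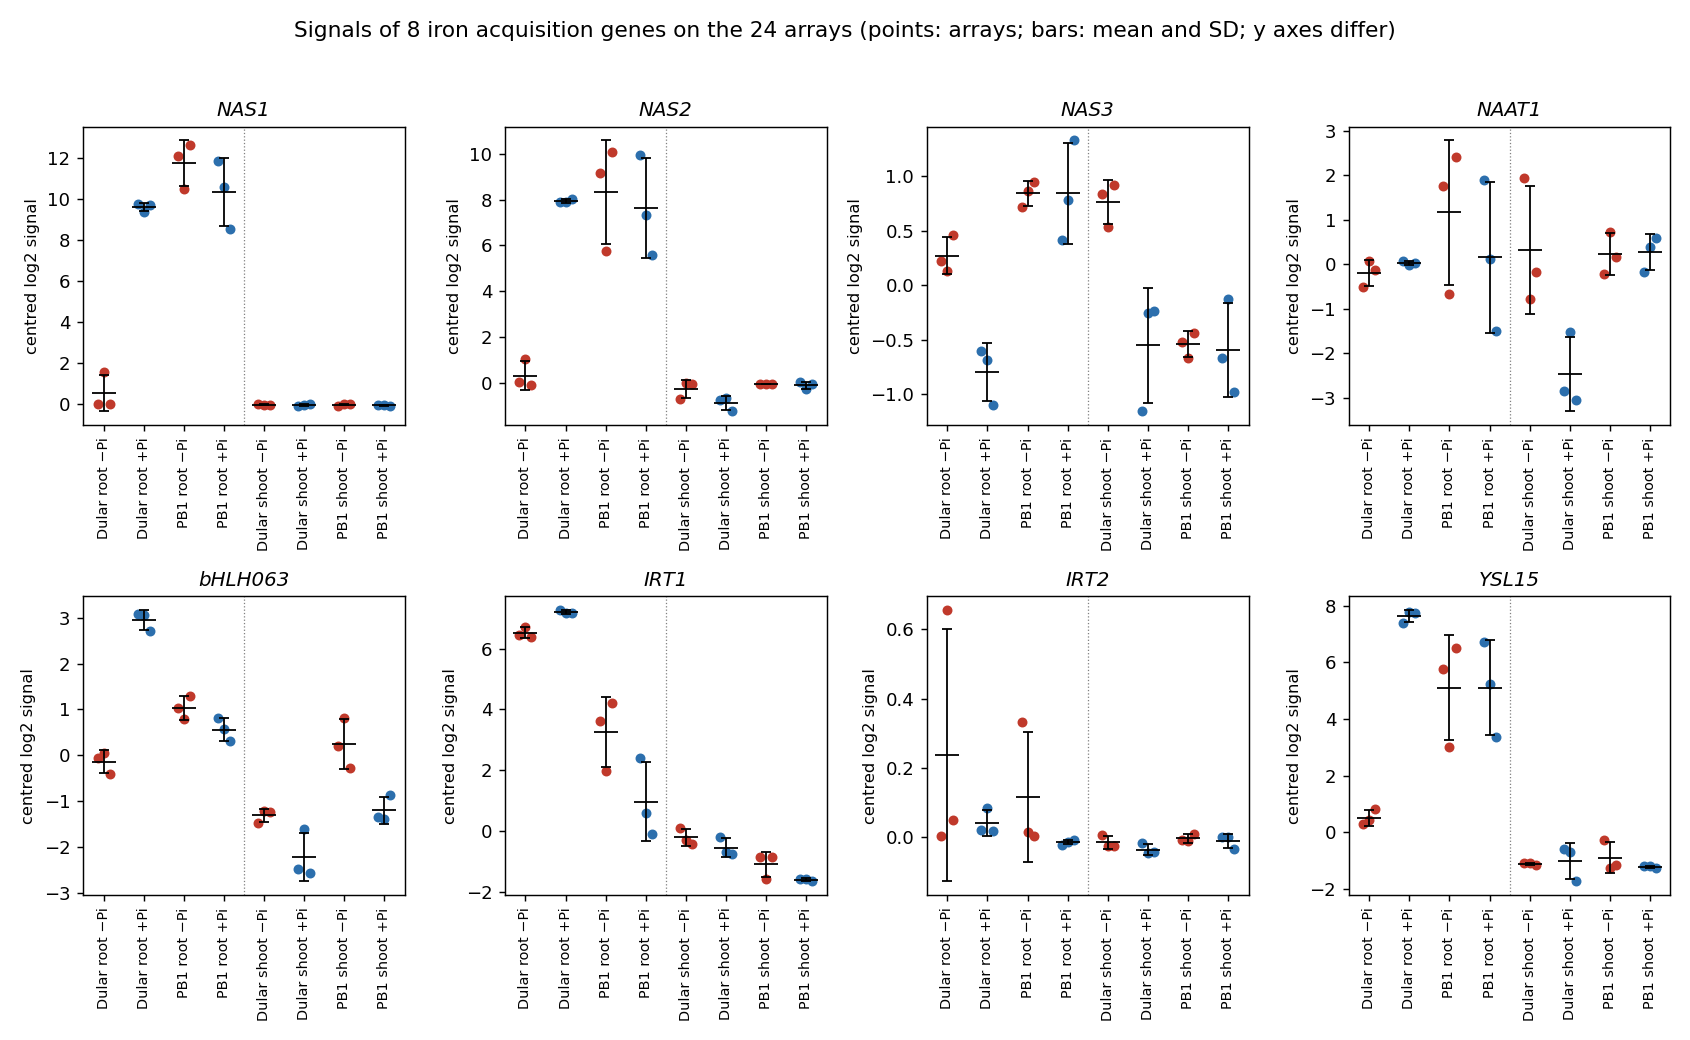
Centred log2 signals of the 8 iron acquisition genes (y axis, own scale in each panel) in the 8 groups (x axis, red −Pi, blue +Pi); points are arrays and bars the mean and SD of 3 arrays. NAS1, NAS2 and YSL15 sit near 0 in Dular roots at −Pi and at 7.41 or more at +Pi, while their PB1 root groups overlap.

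Counted together, 4 of the 8 genes fell in Dular roots (NAS1, NAS2, YSL15 and bHLH063), where 3.44% of all probe sets tested were called lower, and 1 rose (NAS3), where 4.12% were called higher. The median over the 8 genes was -1.89, beside -0.01 over all probe sets. In PB1 roots no member fell and 1 rose (IRT1), where 2.55% of probe sets were called higher, and the median was 0.59 beside 0.02. The share of probe sets called lower in PB1 roots is not given here, so the absence of falls there has no such comparison. In Dular shoots 2 rose (NAS3 and NAAT1; 1.16% of probe sets called higher), and in PB1 shoots 1 rose (bHLH063; 0.603% called higher). Several of the genes belong to 1 chain of synthesis and uptake and part of the 8 vary together, so these counts are not independent observations.

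**Figure D2:**
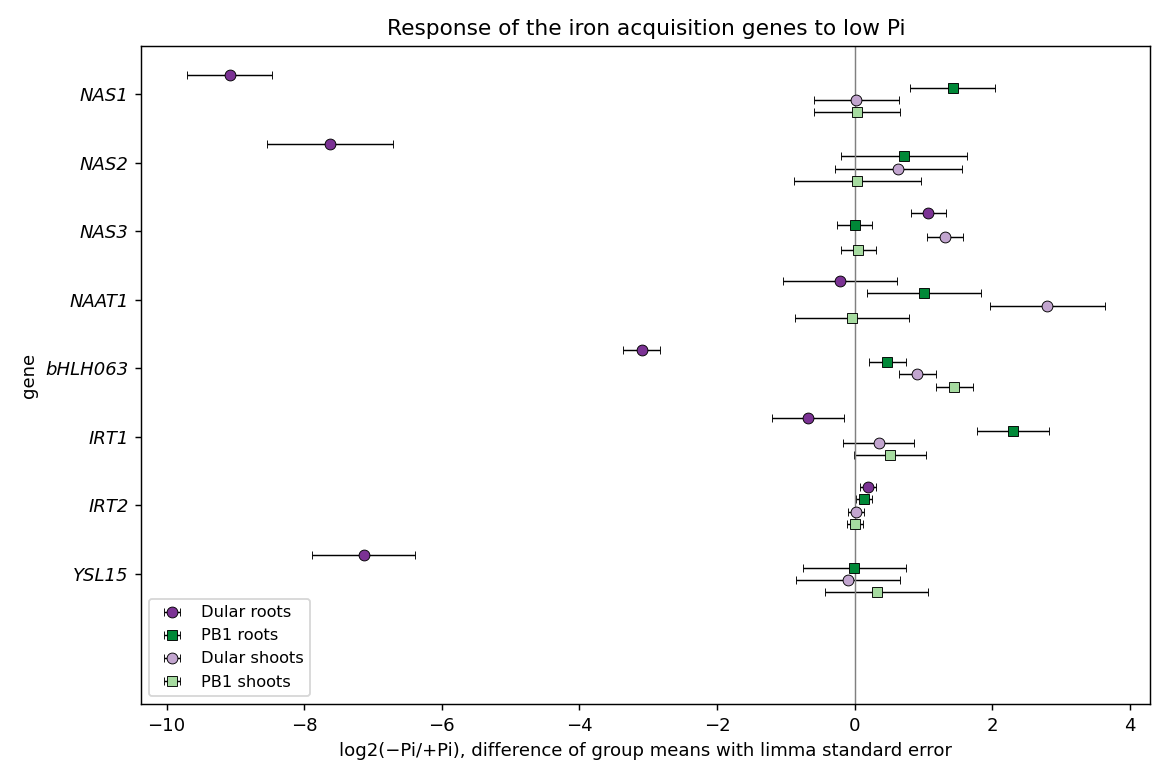
Response to low Pi of each gene as log2(−Pi/+Pi) (x axis, difference of group means; bars are the SE from limma) in Dular roots, PB1 roots, Dular shoots and PB1 shoots. NAS1, NAS2, YSL15 and bHLH063 lie at -9.08, -7.62, -7.13 and -3.09 in Dular roots and between -0.0047 and 1.42 in PB1 roots.

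A separate contrast set the Dular response against the PB1 response. In roots it was -10.51 ± 0.88 for NAS1 (SE, limma adjusted p = 3.87e-07), -8.34 ± 1.30 for NAS2 (adjusted p = 0.000322), -7.13 ± 1.06 for YSL15 (adjusted p = 0.00021) and -3.57 ± 0.38 for bHLH063 (adjusted p = 6.66e-06). The SE takes 1 spread per gene for all 8 groups. Group SDs ran from 0.0041 to 2.27 for NAS2 and from 0.04 to 1.86 for YSL15. Over the alternatives both stayed called, with a highest limma adjusted p of 0.0173 for NAS2 and 0.012 for YSL15. IRT1 had a contrast of -2.98 ± 0.74 (SE, limma adjusted p = 0.0129), made of a rise in PB1 and a value under 0 in Dular that was not called. Fitted to root arrays only, the IRT1 contrast had an adjusted p of 0.0761. These 5 of 8 genes compare with 5.24% of all probe sets called in that direction. In shoots no member was called, against 3.27% of probe sets. After probe sets of little variation had been left out, the NAS3 contrast was called both in shoots (adjusted p = 0.0467) and in roots (adjusted p = 0.0489).

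Set against PB1 at the same Pi level, Dular roots were lower in NAS1, NAS2 and YSL15 at −Pi and not called lower in any of them at +Pi. At −Pi the log2(Dular/PB1) was -11.22 ± 0.62 for NAS1 (SE, limma adjusted p = 2.23e-10), -8.02 ± 0.92 for NAS2 (adjusted p = 2.05e-06), -4.58 ± 0.75 for YSL15 (adjusted p = 1e-04) and -1.18 ± 0.27 for bHLH063 (adjusted p = 0.00229). Lower calls thus numbered 4 of 8 members, where 7.60% of probe sets were called lower. IRT1 was the 1 member higher in Dular, by 3.27 ± 0.52 (adjusted p = 7.79e-05), where 6.67% of probe sets were called higher.

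At +Pi the order turned for 2 of these genes. YSL15 was higher in Dular than in PB1 roots by 2.54 ± 0.75 (SE, limma adjusted p = 0.00822) and bHLH063 by 2.39 ± 0.27 (adjusted p = 2.08e-06). IRT1 was higher by 6.25 ± 0.52 (adjusted p = 5.44e-08), 76.0-fold, with 7.28, 7.17 and 7.18 in Dular and 2.41, 0.58 and -0.11 in PB1. The 3 higher calls stand beside 5.50% of probe sets. NAS3 was the 1 gene lower in Dular, by a log2 of -1.64 ± 0.26 (adjusted p = 7.99e-05), where 7.69% were called lower. NAS1 (-0.71 ± 0.62, adjusted p = 0.335) and NAS2 (0.32 ± 0.92, adjusted p = 0.789) did not pass the test. Without PB1 root +Pi replicate 3 the YSL15 difference was 1.67 and not called (adjusted p = 0.0601), and that of NAS1 was -1.60 and called (adjusted p = 0.0196). How well the probes match each genotype's sequence was not analysed, so a constant offset between Dular and PB1 and a difference in transcript level cannot be told apart.

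**Figure D3:**
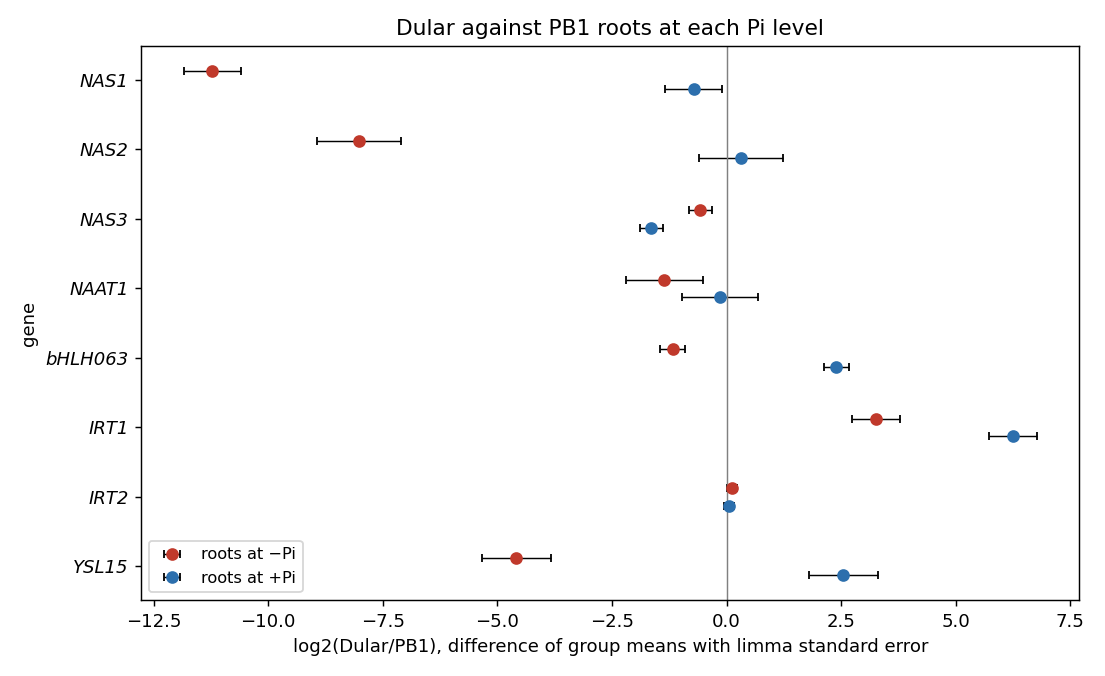
Dular against PB1 roots for each gene as log2(Dular/PB1) (x axis; bars are the SE from limma) at −Pi (red) and +Pi (blue). YSL15 and bHLH063 lie under 0 at −Pi (-4.58 and -1.18) and above 0 at +Pi (2.54 and 2.39), and IRT1 lies above 0 at both.

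In shoots the genotypes differed in few members. At −Pi NAS3 was higher in Dular (1.30 ± 0.26, limma adjusted p = 0.00084; 5.90% of probe sets called higher) and bHLH063 lower (-1.56 ± 0.27, adjusted p = 0.000226; 5.49% called lower). At +Pi 2 members were lower in Dular, where 5.35% of probe sets were, namely bHLH063 (-1.01 ± 0.27, adjusted p = 0.00943) and NAAT1 (-2.74 ± 0.83, adjusted p = 0.0224). In fits to shoot arrays only and to the compared groups only, bHLH063 lost its +Pi call (limma adjusted p = 0.0614 and 0.112) and IRT1 gained one (1.05, adjusted p = 0.0114 and 0.0144). Both +Pi calls were lost when Dular shoot +Pi replicate 1, Dular shoot +Pi replicate 3 or PB1 shoot +Pi replicate 3 was left out.

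Most of the genes were root genes in these seedlings, and in Dular this depended on the Pi level. At +Pi, NAS1 was higher in Dular roots than in Dular shoots by 9.66 ± 0.62 (SE, limma adjusted p = 7.14e-10), YSL15 by 8.67 ± 0.75 (adjusted p = 3.57e-08), NAS2 by 8.84 ± 0.92 (adjusted p = 3.78e-07), IRT1 by 7.76 ± 0.52 (adjusted p = 1.27e-09), bHLH063 by 5.18 ± 0.27 (adjusted p = 4.52e-11) and NAAT1 by 2.50 ± 0.83 (adjusted p = 0.02). The NAAT1 call was lost without Dular shoot +Pi replicate 1 (2.31, limma adjusted p = 0.0592) or replicate 3 (2.21, adjusted p = 0.0649). These 6 of 8 calls stand beside 7.35% of probe sets called higher in roots. At −Pi only IRT1 (6.74 ± 0.52, adjusted p = 7.22e-09) and bHLH063 (1.18 ± 0.27, adjusted p = 0.00205) were called, 2 of 8 beside 8.45% of probe sets. NAS1 then differed by 0.56 ± 0.62 between root and shoot (adjusted p = 0.793), NAS2 by 0.58 ± 0.92 (adjusted p = 0.990) and YSL15 by 1.63 ± 0.75 (adjusted p = 0.133). Every Dular root array at −Pi lay above every Dular shoot array for YSL15, and fitted to these groups only its difference was called (limma adjusted p = 0.00119).

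In PB1, NAS1, NAS2, NAS3, IRT1 and YSL15 were called higher in roots than in shoots at both Pi levels. NAS1 was higher in PB1 roots than shoots by 11.77 ± 0.62 at −Pi and by 10.38 ± 0.62 at +Pi, YSL15 by 5.99 ± 0.75 and 6.32 ± 0.75, and IRT1 by 4.36 ± 0.52 and 2.57 ± 0.52. bHLH063 was called at +Pi (1.77 ± 0.27) and not at −Pi (0.79 ± 0.27, limma adjusted p = 0.0317, under 2-fold), where root and shoot arrays overlapped. The calls were 5 of 8 at −Pi, where 9.12% of probe sets were called higher in roots, and 6 of 8 at +Pi, where 8.26% were. NAS3 was called in PB1 at both levels (1.38 and 1.43) and in Dular at neither. The response to Pi differed between root and shoot of Dular for NAS1 (-9.10 ± 0.88), NAS2 (-8.26 ± 1.30), YSL15 (-7.03 ± 1.06) and bHLH063, 4 of 8 genes beside 4.83% of probe sets. In PB1 none of the 8 passed the same test, against 5.23% of probe sets. Without PB1 root +Pi replicate 1 (2.52, limma adjusted p = 0.021) or −Pi replicate 2 (2.44, adjusted p = 0.0413), IRT1 passed.

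Within the PB1 root groups, the members varied together from array to array. In PB1 roots at −Pi, 5 members spanned at least 1 on the log2 scale over the 3 arrays (NAS1, NAS2, NAAT1, IRT1 and YSL15), and all 5 were lowest in replicate 2 and highest in replicate 3. At +Pi the same 5 spanned at least 1, and all were highest in replicate 1 and lowest in replicate 3. Over all probe sets that spanned as much, replicate 2 was lowest in 25.3% of 2430 at −Pi, and replicate 3 in 35.7% of 3369 at +Pi. NAS2 differed by 4.30 between the extreme arrays at −Pi and by 4.35 at +Pi, and bHLH063, with less spread, had its lowest value on the same arrays. In Dular roots at +Pi no member spanned 1. What sets these arrays apart was not tested, and the 5 members are not 5 separate pieces of evidence for it. PB1 root −Pi replicate 2 and +Pi replicate 3 were picked from these same values. Leaving them out together narrows the spread of PB1 roots, so calls in that fit are no independent check. In it the genotype contrast of the root responses was -10.25 for NAS1, -8.60 for NAS2 and -7.31 for YSL15.

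**Figure D4:**
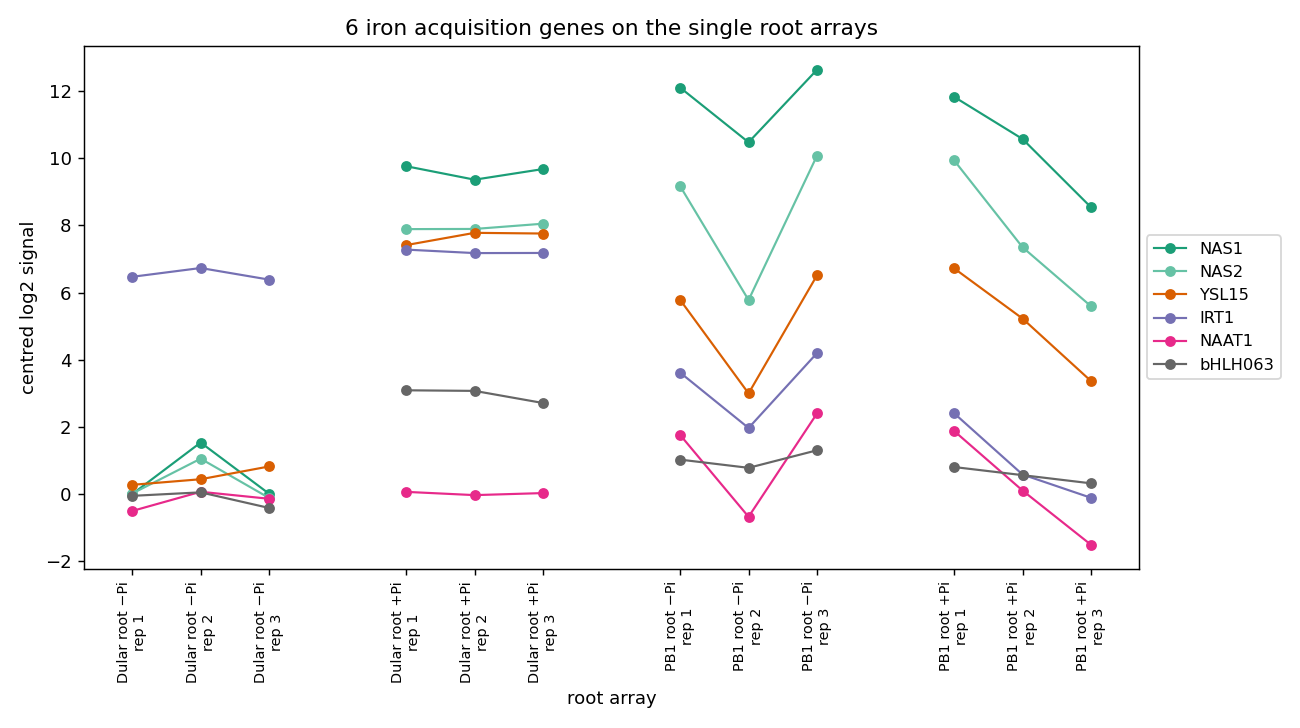
Centred log2 signals (y axis) of NAS1, NAS2, YSL15, IRT1, NAAT1 and bHLH063 on each of the 12 root arrays (x axis); lines join values of 1 gene within a group and imply no order of replicates. Within each PB1 group the lines share an order of replicates, with −Pi replicate 2 and +Pi replicate 3 lowest, while bHLH063 spans far less than the others. The Dular +Pi arrays lie close together.

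Over the 8 group means, NAS1 and NAS2 had a Pearson r of 0.99, NAS2 and YSL15 of 0.97, and YSL15 and bHLH063 of 0.88. NAS3 stayed apart from these (r = 0.37 with NAS1 and 0.17 with YSL15). These values describe 8 points, of which 4 are shoot groups, and carry no test. IRT1 had r = 0.48 with NAS1 and 0.67 with YSL15. Among other genes whose means spanned at least 2, LOC4349704 was the closest to NAS1 and NAS2 (r = 1.00 and 0.99). Among the 5 closest to more than 1 member were also LOC4324944, LOC4343309 and LOC4332162, and LOC4352117, the closest to YSL15 (r = 0.98). The closest to NAAT1 was LOC4348139 (r = 0.86), to bHLH063 LOC4324110 (r = 0.99) and to IRT1 LOC4336128 (r = 0.98), and the tables used give no name for any of these. NRAMP1, described next, was the fourth closest to bHLH063 (r = 0.88).

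Other iron transport genes were read from a list of 26 symbols, of which 12 had a probe set. In Dular roots 2 of the 12 fell, where 3.44% of probe sets were called lower, and 3 rose, where 4.12% were called higher. In PB1 roots none was called, where 2.55% of probe sets were called higher and the share called lower is not given here. NRAMP1, a plasma membrane transporter of iron and other divalent metals, read 0.12, -0.01 and 0.01 in Dular roots at −Pi against 4.86, 4.93 and 4.59 at +Pi (-4.75 ± 0.57, limma adjusted p = 7.57e-06). In PB1 roots it read 1.99, 0.25 and 3.22 at −Pi and 2.98, 1.12 and 0.31 at +Pi, again lowest in −Pi replicate 2 and +Pi replicate 3.

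YSL16, another transporter gene of the YSL family, fell in Dular roots by a log2 of -2.60 ± 0.18 (limma adjusted p = 9.35e-09). It read -1.11, -0.84 and -1.03 in Dular roots at −Pi against 1.65, 1.64 and 1.52 at +Pi. In PB1 roots its difference of -0.81 ± 0.18 passed the p threshold and stayed under 2-fold (limma adjusted p = 0.00479), with no overlap between -0.13, -0.35 and 0.09 at −Pi and 0.86, 0.85 and 0.32 at +Pi.

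VIT2, a transporter that loads iron into the vacuole, moved opposite to YSL15 and NRAMP1. It read -1.16, -0.92 and -0.80 in Dular roots at −Pi against -3.63, -3.69 and -4.13 at +Pi, a rise of 2.85 ± 0.43 (limma adjusted p = 7.59e-05), while no call was made in PB1 roots (-0.01 ± 0.43, adjusted p = 0.988). The other rises were YSL13 (1.31 ± 0.25) and YSL14 (1.11 ± 0.13), named because they complete the count. VIT1, the second vacuolar transporter gene, had 0.88 ± 0.21 (adjusted p = 0.00626), under 2-fold. The contrast between the genotypes in roots was called for 7 of the 12, lower in Dular for NRAMP1 (-5.10 ± 0.81) and YSL16 (-1.79 ± 0.26) and higher for 5, VIT2 (2.87 ± 0.60) and VIT1 (1.36 ± 0.30) among them. Over all probe sets 5.24% were called lower and 6.45% higher in that contrast. The median over the 12 genes was 0.02 in Dular roots, beside -0.01 over all probe sets.

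IDEF1, a regulator that binds promoters of iron deficiency genes, was the 1 gene of the list of other iron regulators with a probe set. It read -1.27, -0.90 and -1.18 in Dular roots at −Pi against -0.12, 0.07 and 0.13 at +Pi (-1.14 ± 0.13, limma adjusted p = 5.36e-06). In PB1 roots it read -1.22, -1.40 and -1.05 at −Pi against -0.45, -0.34 and -0.20 at +Pi (-0.90 ± 0.13, adjusted p = 0.000154, under 2-fold). The difference between the genotypes in this response did not pass the test (-0.25 ± 0.19, adjusted p = 0.342). Of 6 measured genes of the methionine cycle, which supplies S-adenosylmethionine, none was called in roots of either genotype. In Dular roots 3.44% of probe sets were called lower and 4.12% higher, and in PB1 roots 2.55% were called higher. The genotype contrast of the root responses was called lower in 2 of the 6 (5.24% of probe sets), MTK1 (-0.56 ± 0.12, limma adjusted p = 0.0043) and ARD2 (-0.72 ± 0.14, adjusted p = 0.00295), with a median of -0.64 over the 6 beside -0.03 over all probe sets. ARD2 was matched as a synonym of a gene with the symbol HSFA2D, a heat shock factor name, and ARD1 shares its entry with HSFA2C. Each has 2 probe sets, of which 1 was read, and which transcript it reads was not settled.

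**Figure D5:**
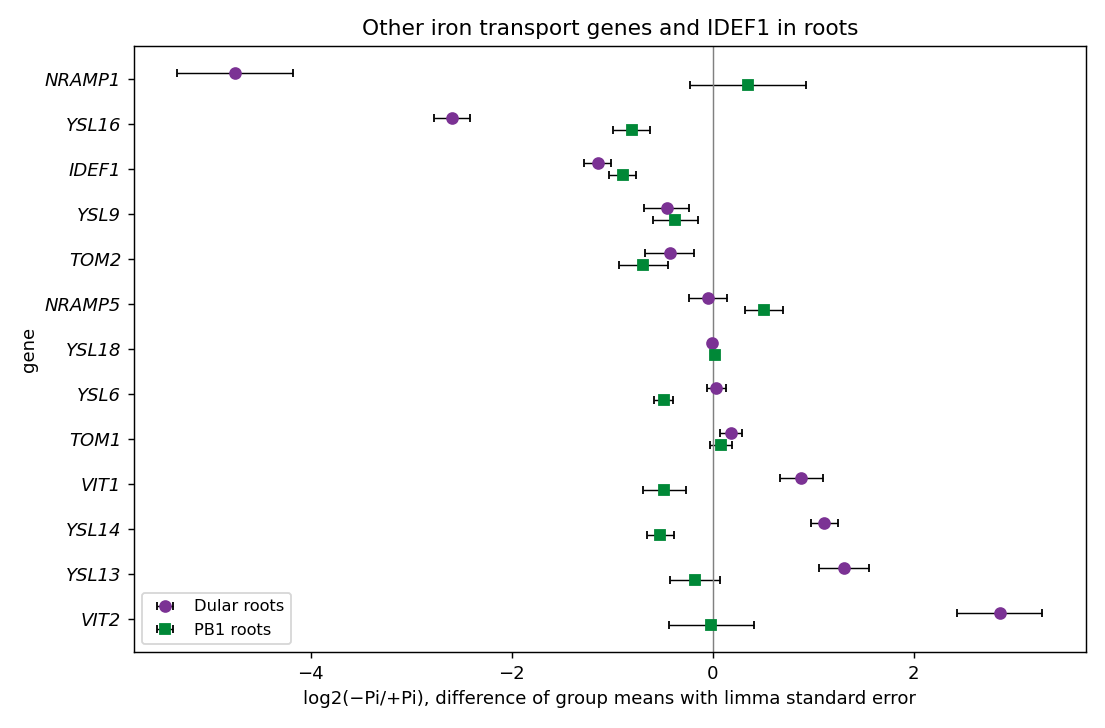
Response to low Pi, as log2(−Pi/+Pi) (x axis; bars are the SE from limma), of 12 other iron transport genes and the regulator IDEF1 in Dular roots and PB1 roots. NRAMP1 and YSL16 lie at -4.75 and -2.60 and VIT2 at 2.85 in Dular roots, while IDEF1 has values near each other in the genotypes (-1.14 and -0.90).

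Marker genes of the other organ moved with the Dular root results. Of 4 shoot markers measured (RCA, RBCS, CAB2R and PORB), 3 were called lower in Dular roots at −Pi than at +Pi, where 3.44% of all probe sets were, and none in PB1 roots. RCA and RBCS have 4 single-gene probe sets each, of which 1 each was read. RCA, the gene of Rubisco activase, averaged -7.61 ± 0.31 in Dular roots at −Pi and -3.67 ± 0.35 at +Pi (SD, n = 3 each), a change of -3.94 ± 0.17 (SE, limma adjusted p = 2.2e-11), and its level in Dular shoots at +Pi was 1.41 ± 0.11 (SD). RBCS changed by -1.96 ± 0.30 and PORB by -1.50 ± 0.15. None of the 4 root markers was called in either root comparison. NAS1, NAS2 and YSL15 themselves stood lower on every Dular shoot array than on every Dular root array at +Pi. The part of the marker shift in the results was not tested.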

How the data were processed

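Total RNA of roots and shoots was hybridized to Affymetrix rice arrays. The deposited values are log2 signals: the authors ran GC-RMA within GeneSpring, and each probe set has a median of 0 across the 24 arrays, so the table was centred by probe set. Scanned intensities and uncentred signals were not used here, so that no detection call was made, and the number of arrays limits the precision. Groups, Pi levels and replicate numbers come from the title and description of each sample. Of 57381 probe sets, 123 controls were left out.

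Members were matched by symbol or synonym, with or without the prefix Os, to the rice gene table (assembly ASM3414082v1) and by gene identifier to probe sets. In the platform annotation, 22436 probe sets have 1 gene, 95 several and 34727 none. Each member had 1 probe set. The members and the gene lists were chosen with earlier results of these data known. Named are all members, at most 3 called genes of each other list, and the genes with the closest group means. Other calls were named where they complete a count.

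Means of the 8 groups were fitted to all 24 arrays by lmFit and eBayes of limma (version 3.58.1; R 4.3.3) without covariates, with Benjamini-Hochberg adjustment over 57258 probe sets for each comparison. With 0.789 prior degrees of freedom, variances were moderated little. The script was tested on simulated data first. Same-numbered replicates were not more alike than others in a steady way (mean r of their deviations 0.0203 against -0.00998, range -0.179 to 0.400, 14 of 84 pairs over 0.1), so the number was not used as a pair. Alternatives were median centring, quantile normalization, a filter on probe sets spanning under 0.2, fits to the same tissue or the compared groups, array weights, no moderation, a replicate block, the rule of the study's methods (a Pi main effect with 2-fold), the other threshold, and leaving out each array. Leaving out PB1 root −Pi replicate 2 and +Pi replicate 3 together was added after the data were seen. Promoter sequences were not analysed here.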

Additional observations from a re-analysis of the deposited data

Results flagged for a closer look

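The response to Pi differed between Dular and PB1 roots, by a test of the difference itself, for NAS1 (-10.51 ± 0.88), NAS2 (-8.34 ± 1.30), YSL15 (-7.13 ± 1.06), bHLH063 (-3.57 ± 0.38) and IRT1 (-2.98 ± 0.74; SE, limma). It also differed between root and shoot of Dular for NAS1 (-9.10 ± 0.88), NAS2 (-8.26 ± 1.30), YSL15 (-7.03 ± 1.06) and bHLH063 (-4.00 ± 0.38). The 2 sets of contrasts share the Dular root arrays, so the genes they have in common are no second observation. The shoot markers RCA, RBCS and PORB were lower in the same −Pi arrays, and their part in these values was not tested. Groups of 3 arrays were not searched for outlying arrays.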

How the results depend on the processing

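Over the 8 genes and 16 comparisons, 2084 alternative values kept their direction where called and their side of the threshold, 40 lost the call, 28 gained one and none of the called values turned its sign. The 4 falls in Dular roots and the 5 genotype contrasts in roots were called under each scaling, although the rule of a Pi main effect lost bHLH063 in Dular roots (adjusted p of that main effect 0.705) and fits to root arrays only lost the IRT1 contrast. The array weights ran from 4.65e-05 to 56.65 after an iteration that stopped early, so that fit rests on few arrays. Counts of members called moved as follows.

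In Dular shoots (2 called) the count was 1 after median centring, in a fit to shoot arrays, with the replicate block, without moderation and under the Pi main effect rule, and 0 with only the compared groups. In PB1 roots (1 called) it was 0 in a fit to root arrays and 0 with only the compared groups. Under the Pi main effect rule the count stayed 1 with NAS1, whose main effect had the opposite sign, in place of IRT1. In PB1 shoots (1 called) it was 0 in a fit to shoot arrays, 0 with only the compared groups and 0 under the Pi main effect rule. For Dular against PB1 shoots at +Pi (2 called) it was 1 after quantile normalization and 1 with array weights, and it stayed 2 in fits to shoot arrays or the compared groups, with IRT1 in place of bHLH063. For the genotype contrast in shoots (0 called) it was 1 after the filter on little variation, and for Dular roots against shoots at −Pi (2 called) it was 4 with array weights. The replicate block left every other count within 1.5 times of its value.

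Leaving out 1 array at a time, the counts ranged from 1 to 3 in Dular shoots, from 0 to 2 for Dular against PB1 shoots at +Pi, from 1 to 2 in PB1 roots (2 without +Pi replicate 1 or −Pi replicate 2), from 0 to 1 for the genotype contrast in shoots and from 0 to 1 for the root-shoot contrast in PB1, and stayed between 4 and 5 in Dular roots and between 5 and 6 for the genotype contrast in roots. An alternative probe set could not be tried, because each member had 1.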

Other observations

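Genes of iron acquisition differed from each other in Dular roots at low Pi. The iron(II) transporter gene IRT1 kept 6.53 ± 0.18 (SD, n = 3) at −Pi, beside 7.21 ± 0.06 at +Pi, on the same arrays on which NAS1, NAS2 and YSL15 averaged 0.51, 0.32 and 0.51 at −Pi, beside 9.60, 7.94 and 7.65 at +Pi. In the same comparison NAAT1 was not called (-0.21 ± 0.83, SE, limma adjusted p = 0.933) and NAS3 rose (1.07 ± 0.26, adjusted p = 0.00608). ARD1, listed here with the methionine cycle but sharing its entry with HSFA2C, was called lower at −Pi in Dular shoots (-1.92 ± 0.48, limma adjusted p = 0.0182). It was lower in Dular than in PB1 roots at −Pi (-3.03 ± 0.48, adjusted p = 7.23e-05) and at +Pi (-1.94 ± 0.48, adjusted p = 0.00291). NRAMP5, the main manganese uptake transporter gene of rice roots, rose in Dular shoots (1.44 ± 0.19, limma adjusted p = 0.000118) and was not called in Dular roots (-0.05 ± 0.19, adjusted p = 0.933). Its Dular shoot arrays lay between -3.03 and -1.15, far under its Dular root arrays (2.79 to 3.14), and no detection call was made. ARD1 and NRAMP5 were chosen after their values were seen.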
